A study of Homo sapiens with 4 samples.

Results

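Epithelial-mesenchymal transition (EMT) regulators were examined in olaparib-resistant and parental prostate cancer cell lines. The set was defined as every gene of the deposited count table named VIM, SNAI1, SNAI2, ZEB1, ZEB2, TWIST1, EPCAM, ESRP1, ESRP2 or OVOL1. Of these 10 genes, 8 were found among the 22637 genes of the table, and ZEB1 and ZEB2 were not analysed here. The RNA-seq study asked how the transcriptomes of prostate cancer cells that had become resistant to olaparib, an inhibitor of PARP enzymes in DNA repair, differ from those of their olaparib-naïve parents. LNCaP is a castration-sensitive prostate adenocarcinoma line and LN-OlapR is its olaparib-resistant derivative. C4-2B is a castration-resistant line that descends from LNCaP, and 2B-OlapR is its olaparib-resistant derivative. Both resistant lines were selected by long culture in rising olaparib and kept in it, whereas the parents were olaparib-naïve, and all 4 samples are labelled untreated. By the series description the cells grew for 48 hours in the absence of selecting drug before RNA isolation, while the study's methods give a longer time. Whether a resistant line is 1 clone is not given in the sources used here.

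Each line was represented by 1 RNA library, so the line and the library cannot be told apart, and no p-value was computed. Totals ranged from 19950537 to 26394267 counts. Levels below are normalized CPM, that is, counts scaled to a common library size after TMM normalization. Brackets and "95%" give intervals for counting error only, not for differences between cultures. A gene was called higher or lower when its normalized level differed at least 2-fold, provided that its mean over both lines was at least 1 normalized CPM. A gene under 1 CPM in 1 of the lines could pass only through its higher line. LN-OlapR against LNCaP is called the LN pair and 2B-OlapR against C4-2B the 2B pair. These are bulk libraries, in which fewer cells with a transcript and less of that transcript per cell cannot be told apart.

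EMT is the program by which epithelial cells give up cell-cell junctions and apical-basal polarity and take on a motile, mesenchymal form. Its core transcription factors, of the SNAIL, ZEB and TWIST families, repress E-cadherin and other epithelial genes by binding E-box sequences, while vimentin, the intermediate filament protein encoded by VIM, is a classical marker of the mesenchymal state. Epithelial cells hold the opposite state with splicing regulators such as ESRP1 and ESRP2, with repressors of EMT factors such as OVOL1, and with adhesion proteins such as EpCAM, and prostate adenocarcinoma lines with active androgen receptor are epithelial by origin.

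VIM (ENSG00000026025.16) occupies bases 17228259 to 17237593 of chromosome 10 (plus strand) in the GENCODE 29 annotation of GRCh38. Of the 8 measured members, only VIM had an upstream window in the RefSeq set used. The sequence upstream of its RefSeq start is shown, with capitals for the GC box GGGCGG, the binding sequence of Sp1-type factors. The window is chr10:17227991-17228240 on the plus strand of GRCh38.p14, and the RefSeq start follows it at 17228241.
VIM upstream window: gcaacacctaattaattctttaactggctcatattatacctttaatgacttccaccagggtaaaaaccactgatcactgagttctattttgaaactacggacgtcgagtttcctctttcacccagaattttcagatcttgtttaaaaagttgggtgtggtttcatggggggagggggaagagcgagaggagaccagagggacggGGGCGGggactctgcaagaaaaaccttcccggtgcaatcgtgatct
The window was searched on both strands for CACCTG, a high-affinity E-box of SNAIL and ZEB factors, for the general E-box CANNTG, which includes CACCTG, and for GGGCGG. It held 0 matches of CACCTG, 0 of CANNTG and 1 of GGGCGG at bases 205 to 210, the first of which lies 46 bases before the RefSeq start. Among 35116 RefSeq windows of the same length, 17.5% held CACCTG, 61.8% held CANNTG and 42.6% held GGGCGG. The matches describe these letters only. The annotated coding transcript VIM-201 starts 1038 bases past the window, the sequence beside that start was not searched, and which start these lines use was not tested. The window lies within the antisense gene VIM-AS1.

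Of the 7 members past the minimum level VIM differed most, and it was lower in each resistant line than in its parent. Its level was 57.0 CPM in LNCaP (95% 54.2 to 60.0; 1533 counts), 41.8 in C4-2B (39.0 to 44.7; 855 counts), 1.46 in LN-OlapR (1.01 to 2.04; 34 counts) and 9.41 in 2B-OlapR (8.14 to 10.8; 195 counts). Both parental lines were thus high and both resistant lines low, and no neighbours in the order LNCaP, C4-2B, 2B-OlapR, LN-OlapR differed by less than counting error. The level was 39.1-fold lower in LN-OlapR than in LNCaP, a log2 ratio of -5.27 (95% -5.83 to -4.80). In the 2B pair it was 4.44-fold lower, a log2 ratio of -2.15 (-2.38 to -1.92). The log2 ratio of the 2B pair exceeded that of the LN pair by 3.12 (2.59 to 3.66), so that counting error did not cover the difference between the pairs. C4-2B lay 0.45 below LNCaP on the log2 scale (ratio -0.45, -0.57 to -0.33), a difference under 2-fold.

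**Figure D1:**
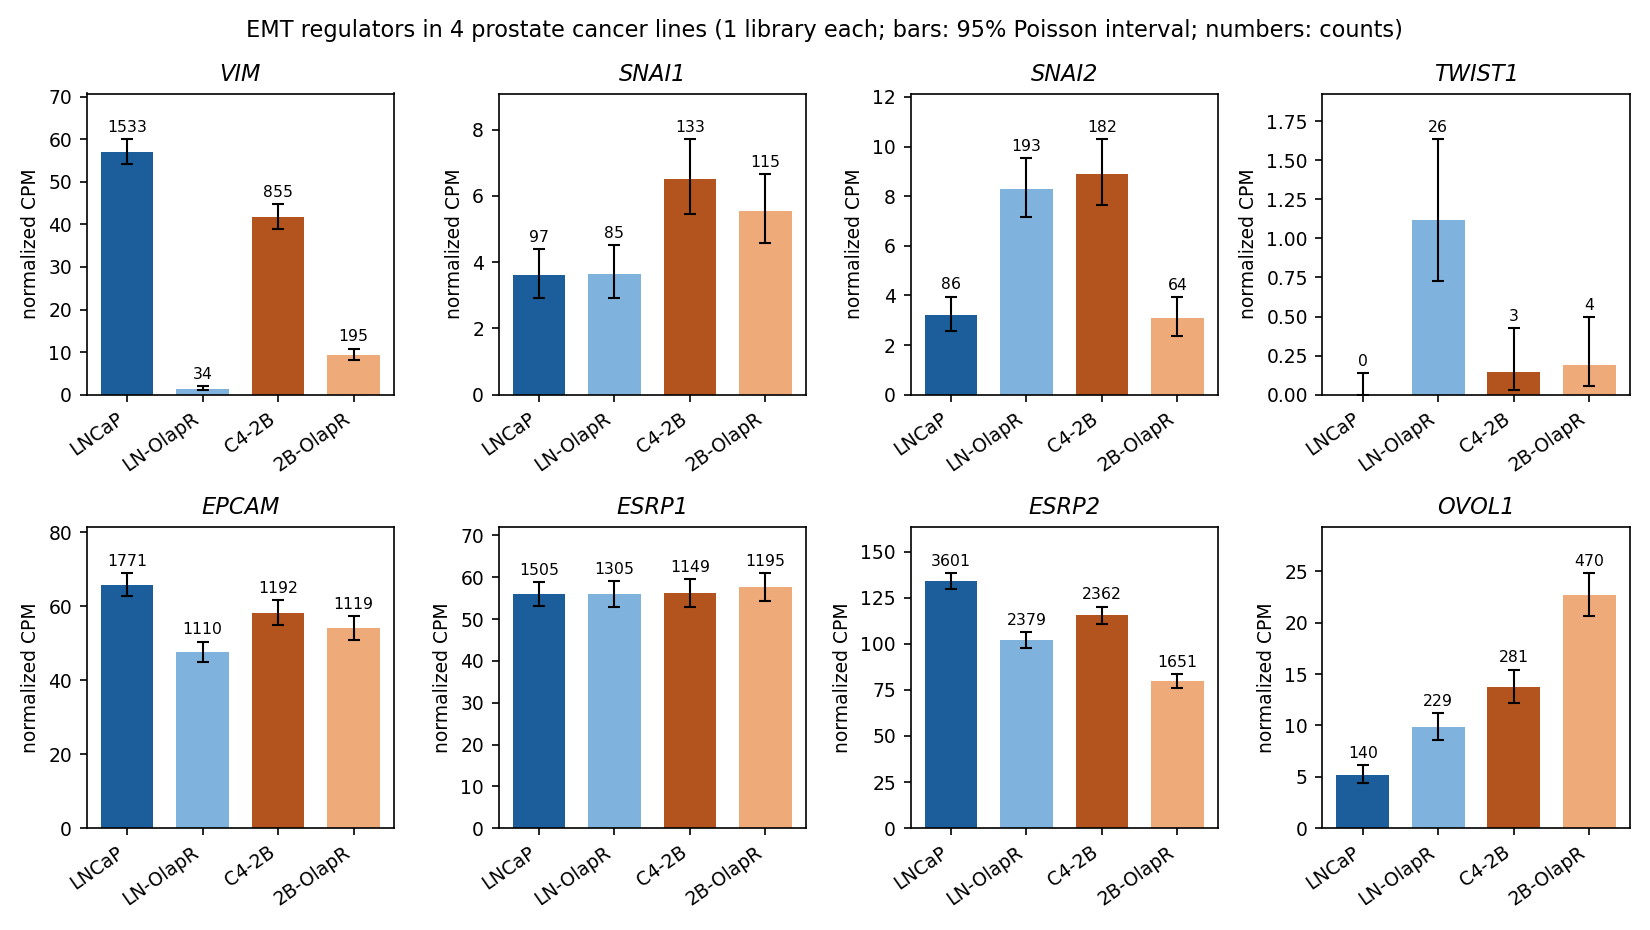
Normalized CPM (vertical axis, linear, from 0, scaled for each gene) of the 8 EMT regulators in the 4 lines, with 95% Poisson intervals and the counts above the bars. VIM stands at 57.0 and 41.8 in the parental lines against 1.46 and 9.41 in the resistant lines, while ESRP1 stays between 55.9 and 57.7 in all 4.

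The antisense gene VIM-AS1, which runs on the minus strand from 17214239 to 17229985 and overlaps the start of VIM, had 53 counts in each parental line, 2 in LN-OlapR and 17 in 2B-OlapR. It was therefore also lower in both resistant lines, at a log2 ratio of -4.21 (-7.61 to -2.60) in the LN pair and -1.63 (-2.54 to -0.85) in the 2B pair. In each pair VIM-AS1 passed the minimum level only through the parent, at 1.97 CPM in LNCaP and 2.59 in C4-2B. LN-OlapR had 0.0857 CPM and 2B-OlapR 0.820. VIM had 28.9, 17.0, 16.1 and 11.5 counts for each VIM-AS1 count in LNCaP, LN-OlapR, C4-2B and 2B-OlapR. The libraries were stranded, but whether the counting used strand is not given in the sources used here, so reads of VIM and VIM-AS1 in the shared stretch cannot be told apart.

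The genes of the SNAIL and TWIST families were all low, and none of them was called lower in both resistant lines, as VIM was. SNAI1 (ENSG00000124216.4, chromosome 20, 49982999 to 49988886, plus strand) encodes SNAIL, a zinc finger repressor of E-cadherin. It stood at 3.61 CPM in LNCaP (97 counts), 6.50 in C4-2B (133 counts), 3.64 in LN-OlapR (85 counts) and 5.55 in 2B-OlapR (115 counts). Both lines of the C4-2B lineage were above both lines of the LNCaP lineage, and within each pair the levels differed by less than counting error. The log2 ratios were 0.02 (-0.42 to 0.45) in the LN pair and -0.23 (-0.60 to 0.14) in the 2B pair. Against LNCaP, C4-2B was 1.80-fold higher (log2 0.85, 0.46 to 1.24).

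SNAI2 (ENSG00000019549.13, chromosome 8, 48917604 to 48921740, minus strand) encodes SLUG, a related repressor that is also active in basal and stem-like epithelial cells. Its level was 3.20 CPM in LNCaP (95% 2.56 to 3.95; 86 counts), 8.89 in C4-2B (7.65 to 10.3; 182 counts), 8.27 in LN-OlapR (7.15 to 9.53; 193 counts) and 3.09 in 2B-OlapR (2.38 to 3.94; 64 counts). LN-OlapR and C4-2B were thus high and LNCaP and 2B-OlapR low, and within each of these groupings the levels differed by less than counting error. SNAI2 was 2.59-fold higher in LN-OlapR than in its parent (log2 1.37, 0.997 to 1.75), an interval that reaches the 2-fold limit. It was 2.88-fold lower in 2B-OlapR than in its parent (log2 -1.52, -1.96 to -1.11). The ratio of the 2B pair was below that of the LN pair by a log2 difference of -2.88 (-3.43 to -2.34). C4-2B exceeded LNCaP 2.78-fold (log2 1.47, 1.10 to 1.86).

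TWIST1 (ENSG00000122691.13, chromosome 7, 19020991 to 19117672, minus strand), a helix-loop-helix factor of mesoderm development, was near or at 0 in 3 of the 4 lines. It had 0 counts in LNCaP (95% limit 0.137 CPM), 3 counts in C4-2B (0.147 CPM) and 4 counts in 2B-OlapR (0.193 CPM). In LNCaP, 3 counts would equal 0.112 CPM. LN-OlapR alone had a measurable level, 26 counts or 1.11 CPM (95% 0.728 to 1.63). This was 9.99-fold higher than LNCaP when LNCaP is set to 3 counts, and the 95% interval of the log2 ratio began at 2.92. The LN-OlapR level also exceeded that of 2B-OlapR 5.77-fold (log2 2.39, 1.002 to 4.51). TWIST1 stayed under the minimum level in all 3 comparisons and was not among the genes called.

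From highest to lowest line the epithelial members differed less than VIM, although OVOL1 differed more than SNAI1 and SNAI2. EPCAM (ENSG00000119888.11, chromosome 2, 47345158 to 47387601, plus strand) encodes the adhesion protein EpCAM, widely used to mark epithelial tumour cells. It was measured at 65.9 CPM in LNCaP (1771 counts), 58.3 in C4-2B (1192 counts), 47.6 in LN-OlapR (1110 counts) and 54.0 in 2B-OlapR (1119 counts). LNCaP was highest and LN-OlapR lowest, 1.38-fold apart, and C4-2B and 2B-OlapR differed by less than counting error. The log2 ratio was -0.47 (-0.58 to -0.36) in the LN pair, -0.11 (-0.23 to 0.01) in the 2B pair and -0.18 (-0.28 to -0.07) for C4-2B against LNCaP.

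ESRP1 and ESRP2 encode epithelial splicing regulatory proteins, which keep transcripts such as those of FGFR2 and CD44 in their epithelial isoforms. ESRP1 (ENSG00000104413.18, chromosome 8, 94641074 to 94707466, plus strand) had 56.0, 55.9, 56.2 and 57.7 CPM in LNCaP, LN-OlapR, C4-2B and 2B-OlapR, from 1505, 1305, 1149 and 1195 counts. No line stood apart, and the highest exceeded the lowest by a log2 ratio of 0.04 (-0.07 to 0.16). ESRP2 (ENSG00000103067.14, chromosome 16, 68229111 to 68238102, minus strand) had 134.0, 102.0, 115.4 and 79.7 CPM in the same order, from 3601, 2379, 2362 and 1651 counts. It was lower in each resistant line than in its parent, and each pair of neighbours in its order differed by more than counting error. The differences were under 2-fold, at a log2 ratio of -0.39 (-0.47 to -0.32) in the LN pair, where it was 1.31-fold lower, and -0.53 (-0.63 to -0.44) in the 2B pair, where it was 1.45-fold lower. ESRP2 overlaps NFATC3 on the opposite strand and AC020978.5 and AC020978.4 on its own strand, so its counts could include reads of those genes.

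OVOL1 (ENSG00000172818.10, chromosome 11, 65787022 to 65797219, plus strand) encodes a zinc finger repressor that restrains ZEB1 and other mesenchymal genes in epithelia. It was lowest in LNCaP at 5.21 CPM (95% 4.38 to 6.15; 140 counts), followed by LN-OlapR at 9.82 (8.59 to 11.2; 229 counts), C4-2B at 13.7 (12.2 to 15.4; 281 counts) and 2B-OlapR at 22.7 (20.7 to 24.8; 470 counts). Each resistant line was above its parent, and each step of this order exceeded counting error. The level was 1.89-fold higher in LN-OlapR (log2 0.91, 0.61 to 1.23) and 1.65-fold higher in 2B-OlapR (log2 0.72, 0.51 to 0.94), both under the 2-fold limit. C4-2B exceeded LNCaP 2.64-fold (log2 1.40, 1.10 to 1.70). From LNCaP to 2B-OlapR the level differed 4.36-fold, the widest range of the epithelial members.

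Levels of different genes were compared as normalized CPM per kilobase of the longest annotated transcript. By the median of the 4 lines the order was EPCAM at 32.6, ESRP2 at 28.7, ESRP1 at 14.7, VIM at 9.60, OVOL1 at 3.88, SNAI1 at 2.73, SNAI2 at 2.03 and TWIST1 at 0.102. By this median EPCAM, ESRP2 and ESRP1 led and the EMT transcription factors were last, but the place of VIM differed between lines. VIM had 21.4 CPM per kilobase in LNCaP and 15.7 in C4-2B, above the 14.7 and 14.8 of ESRP1, whereas per kilobase of merged exons it had 11.1 and 8.10, below the 11.5 of ESRP1 in both lines. In LN-OlapR it had 0.547, below SNAI2 at 2.93 and SNAI1 at 2.16. TWIST1 had 0.669 there, but with 34 counts of VIM and 26 of TWIST1 the order of these genes is not settled. EPCAM exceeded VIM per kilobase of the longest transcript 1.79-fold in LNCaP, 2.16-fold in C4-2B, 50.5-fold in LN-OlapR and 8.87-fold in 2B-OlapR. These folds depend on the length used. Per kilobase of merged exons EPCAM and VIM had 26.2 and 11.1 in LNCaP, and 18.9 and 0.283 in LN-OlapR.

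In the LN pair, 7 of the 8 measured members passed the minimum level. SNAI2 was the 1 member called higher, where 4.64% of 15373 tested genes were, and VIM was the 1 member called lower, where 4.83% were. VIM ranked 46 from the lowest ratio and SNAI2 ranked 436 from the highest. OVOL1 ranked 827 from the highest. The counting interval left out 0 for 5 of the 7, against 62.4% of all tested genes.

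In the 2B pair, VIM and SNAI2 were called lower, 2 of 7, where 5.65% of 15527 tested genes were. No member was called higher, 0 of 7, where 4.42% were. VIM ranked 185 and SNAI2 409 from the lowest ratio. The interval left out 0 for 4 of the 7 members, against 61.7% of all genes tested. Between the pairs, VIM was the 1 member of the 7 called lower in both, as were 1.09% of 14602 genes tested in both. SNAI2 was the 1 member called higher in the LN pair and lower in the 2B pair, as were 0.431% of those genes.

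C4-2B was compared with LNCaP to show how the parental lines differ. SNAI2 and OVOL1 were called higher, 2 of 7, where 8.0% of 15580 genes were. No member was called lower, 0 of 7, where 7.18% were. The interval left out 0 for 6 of the 7 members and 69.9% of all genes. This comparison shares C4-2B with the 2B pair and LNCaP with the LN pair, so its ratios are not independent of theirs. With 7 members in each comparison, these counts describe single genes rather than the set.

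**Figure D2:**
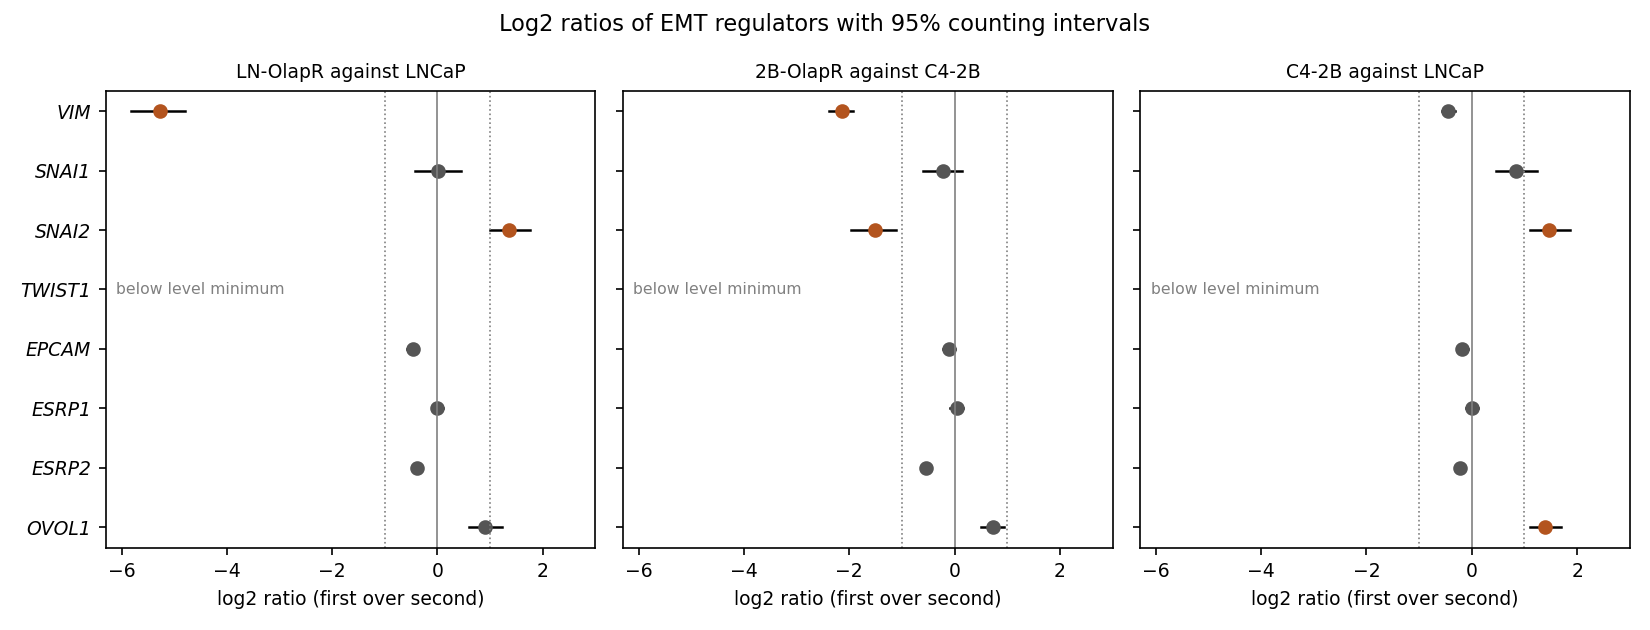
Log2 ratio of normalized counts (horizontal axis) for each EMT regulator in the 3 comparisons, with lines for 95% counting intervals, dotted lines at 2-fold and orange points for genes called. VIM lies at -5.27 and -2.15 in the resistant-parental pairs, SNAI2 at 1.37 and -1.52, and TWIST1 is under the minimum level in each.

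Other genes of the EMT program were grouped by role in 11 lists, of which 123 of 142 genes besides the members were measured. Where a list's count of genes called is given, the shares of all genes above apply, and the median log2 ratio of all tested genes was -0.00 in both pairs and -0.02 for C4-2B against LNCaP. Of the other EMT-promoting transcription factors, 6 passed the minimum level in the LN pair and 4 in the 2B pair. SNAI3, another SNAIL family gene, was 2.45-fold lower in LN-OlapR with 48 counts in LNCaP and 17 in LN-OlapR, and ETS1 was 2.79-fold lower with 45 and 14 counts. Both passed the minimum only through LNCaP, at 1.79 and 1.67 CPM, and neither was tested in the 2B pair. None of the 4 genes tested there was called. The list medians were -0.06 and -0.03, but 0.15 and 0.08 with a minimum of 0.1 CPM. TCF4 and GSC were higher in C4-2B than in LNCaP and SNAI3, again past the minimum through LNCaP, was lower, 3 of 5 genes tested. Their list median was 0.66, and 0.083 with a minimum of 10 CPM.

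The corepressors that SNAIL and ZEB factors recruit, among them CTBP1, KDM1A and HDAC1, were measured for 8 of 8 genes. AJUBA, a LIM protein that bridges SNAIL to partners, was the 1 gene called, 3.28-fold lower in 2B-OlapR (log2 -1.71, -1.98 to -1.45), with a log2 ratio of -0.52 in the LN pair. The list medians were -0.13 in the LN pair, -0.12 in the 2B pair and -0.12 for C4-2B against LNCaP. Genes of SNAIL protein turnover, such as GSK3B and BTRC, had medians of -0.22 in both pairs and -0.13 for C4-2B against LNCaP, and none of the 7 and 6 tested was called in a pair. PAK1, a kinase of SNAIL, had 220 counts in LNCaP, 0 in C4-2B, 164 in LN-OlapR and 10 in 2B-OlapR. C4-2B was 55.8-fold lower than LNCaP when C4-2B is set to 3 counts, and the 95% interval of the log2 ratio ended at -5.49. PAK1 passed the minimum in that comparison only through LNCaP.

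The epithelial-state transcription factors other than OVOL1 included 1 gene called in each pair, in opposite directions. ELF5, an epithelial ETS factor, had 60 counts in LNCaP, 272 in C4-2B, 5 in LN-OlapR and 694 in 2B-OlapR. It was lower in LN-OlapR (log2 -3.25, -5.05 to -2.08) and higher in 2B-OlapR (log2 1.33, 1.13 to 1.54). In the LN pair ELF5 passed the minimum only through LNCaP, at 2.23 CPM against 0.214 in LN-OlapR. OVOL2, the paralog of OVOL1, had log2 ratios of 0.02 and -0.96 (-1.27 to -0.66), unlike the 0.91 and 0.72 of OVOL1. GRHL2, which sustains epithelial junction genes, had 0.58 and 0.16. The medians were -0.17 over 10 genes and 0.10 over 9, and 0.53 over 9 for C4-2B against LNCaP, where ELF5 was the 1 gene called.

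Like ESRP1 and ESRP2, the other EMT-linked splicing factors were not called in any comparison, 0 of 7. The medians of these 7 were 0.19, 0.06 and 0.14 in the LN pair, the 2B pair and C4-2B against LNCaP. RBM47, an epithelial splicing factor, had the highest ratios of this list in both pairs, 0.75 and 0.43. Of the proteases and partners of EpCAM, 8 of 10 genes were tested and 0 were called in each comparison. LEF1, a transcription factor of Wnt signalling, had the highest ratios of these genes, 0.62 in the LN pair and 0.23 in the 2B pair. Their medians were -0.03, -0.02 and -0.09.

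Epithelial junction, polarity and surface genes, the usual targets of EMT repressors, were measured for 26 of 26 genes. None was called in the LN pair, whose median was -0.16 and whose lowest ratio was -0.91, for the tight junction gene TJP1. CDH1, which encodes E-cadherin, stood at 572.3, 543.7, 473.0 and 448.6 CPM in LNCaP, LN-OlapR, C4-2B and 2B-OlapR, with log2 ratios of -0.07 and -0.08 in the pairs. In the 2B pair 2 desmosome genes were lower, DSP 3.07-fold (log2 -1.62) and DSG2 2.63-fold (log2 -1.39), and the tight junction gene TJP3 was 2.19-fold higher (log2 1.13). The median of the 2B pair was 0.06. For C4-2B against LNCaP none was called and the median was -0.11.

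Mesenchymal effector genes other than VIM were measured for 13 of 23 genes, of which 6 passed the minimum level in the LN pair and 7 in the 2B pair. ITGA5, the fibronectin receptor subunit alpha-5, was lower in both resistant lines, with 746, 283, 884 and 309 counts in LNCaP, LN-OlapR, C4-2B and 2B-OlapR. Its ratios were -1.19 (-1.40 to -0.99) and -1.53 (-1.73 to -1.35). Besides ITGA5, the 2B pair had lower LGALS1 (-1.50), LOX (-1.26) and COL1A1 (-1.17), 4 of 7 genes with a list median of -1.17. That median was -0.28 with a minimum of 0.1 CPM and -0.36 with none, as genes of low level entered. FN1, which encodes fibronectin, was at 161.4, 400.8, 662.4 and 647.8 CPM in the 4 lines, 2.48-fold higher in LN-OlapR (log2 1.31) and at a log2 ratio of -0.03 in the 2B pair. The LN pair thus had 1 gene higher and 1 lower of 6, with a median of -0.30. Against LNCaP, C4-2B had higher FN1, LOX and LGALS1 and lower ACTA2, with a median of 0.36 over 8 genes, which was 0.084 with a minimum of 0.1 CPM or none.

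The other intermediate filament genes did not have the pattern of VIM. Of 4 tested in each pair, PRPH was higher in LN-OlapR (13 and 64 counts, log2 2.46) and NEFL was higher in 2B-OlapR (17 and 126 counts, log2 2.84). PRPH and NEFL passed the minimum there only through the resistant line. NES, a filament gene of neural progenitors, had 47, 38, 957 and 715 counts, so that both lines of the C4-2B lineage were high. The list medians were 0.57, 0.32 and, over 3 genes for C4-2B against LNCaP, 2.99, where NES and PRPH were higher. PRPH passed the minimum in that comparison only through C4-2B. With a minimum of 0.1 CPM or none the median of the 2B pair was 1.22, and that of C4-2B against LNCaP was 0.39 with the former and 0.11 with the latter.

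Genes of the TGF-beta and BMP pathways, which drive EMT in many epithelia, were measured for 23 of 23. None of 17 was called in the LN pair, where the median was -0.00. In the 2B pair 5 of 20 were higher and 1 lower, with a median of 0.23. The receptor gene TGFBR2 had 7, 1, 0 and 61 counts in LNCaP, LN-OlapR, C4-2B and 2B-OlapR. It was 20.1-fold higher in 2B-OlapR than in its parent when C4-2B is set to 3 counts, and it passed the minimum only through 2B-OlapR. The ligand gene TGFB2 (log2 2.80), the co-receptor gene TGFBR3 (1.01), the inhibitory SMAD6 (1.34) and the BMP target ID2 (1.33) were also higher, and the ligand gene BMP7 was lower (-1.05). For C4-2B against LNCaP, BMP7, ID1 and ID3 were higher of 18 genes, and the median was -0.06. Of 6 noncoding genes 3 were measured. VIM-AS1 was the 1 called in each pair, past the minimum only through the parental lines. MIR200CHG, the host of 2 miR-200 family members, had 0.44 and 0.47, and ZEB1-AS1 had 0.01 and -0.10. The medians of these 3 were 0.01, -0.10 and 0.39.

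**Figure D3:**
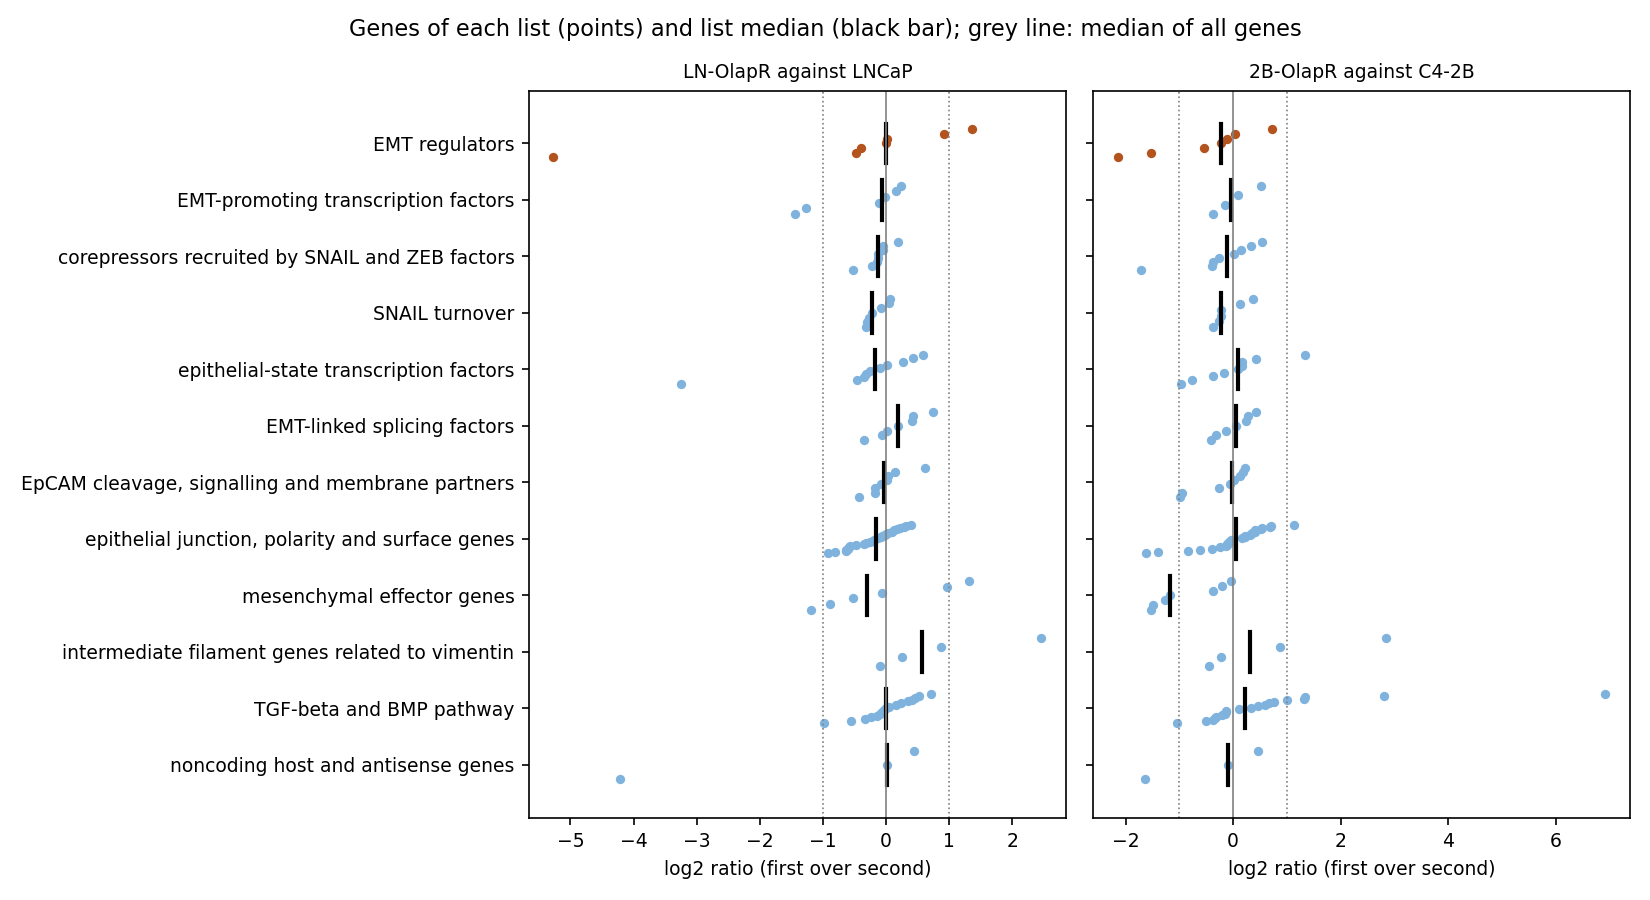
Log2 ratios (horizontal axis) of the EMT regulators, in orange, and of the genes of the 11 lists, in blue, that passed the minimum level in the LN pair and the 2B pair; black bars are list medians, the grey line is the median of all genes and dotted lines mark 2-fold. At this minimum the mesenchymal effector genes of the 2B pair have a median of -1.17, and the other medians lie between -0.30 and 0.57, but with a minimum of 0.1 CPM those of the mesenchymal effector and intermediate filament genes in the 2B pair are -0.28 and 1.22. The point of TGFBR2, at 0 counts in C4-2B, depends on the pseudocount.

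The genes nearest to VIM in pattern were sought among genes averaging 10 normalized CPM or more, by the root mean square difference of log2 levels after each gene was centred on its own mean over the 4 libraries. LIN7A, which encodes a polarity scaffold protein, was nearest at 0.459, with 105.6 CPM in LNCaP, 73.0 in C4-2B, 2.14 in LN-OlapR and 32.1 in 2B-OlapR. The glycosyltransferase gene LARGE2 followed at 0.754, with 20.2, 33.2, 1.76 and 12.6 CPM in that order. The steroid glucuronidation genes UGT2B15 at 0.790 and UGT2B11 at 0.898 came next, and the linker histone gene H1-2 was the last at 0.948. All 5 were higher in each parental line than in its resistant derivative, which a search for the pattern of VIM favours. UGT2B15 and UGT2B11 are near-identical to other genes of their family, and how their shared reads were divided is uncertain. This likeness rests on 4 libraries and on a search over the whole table.

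**Figure D4:**
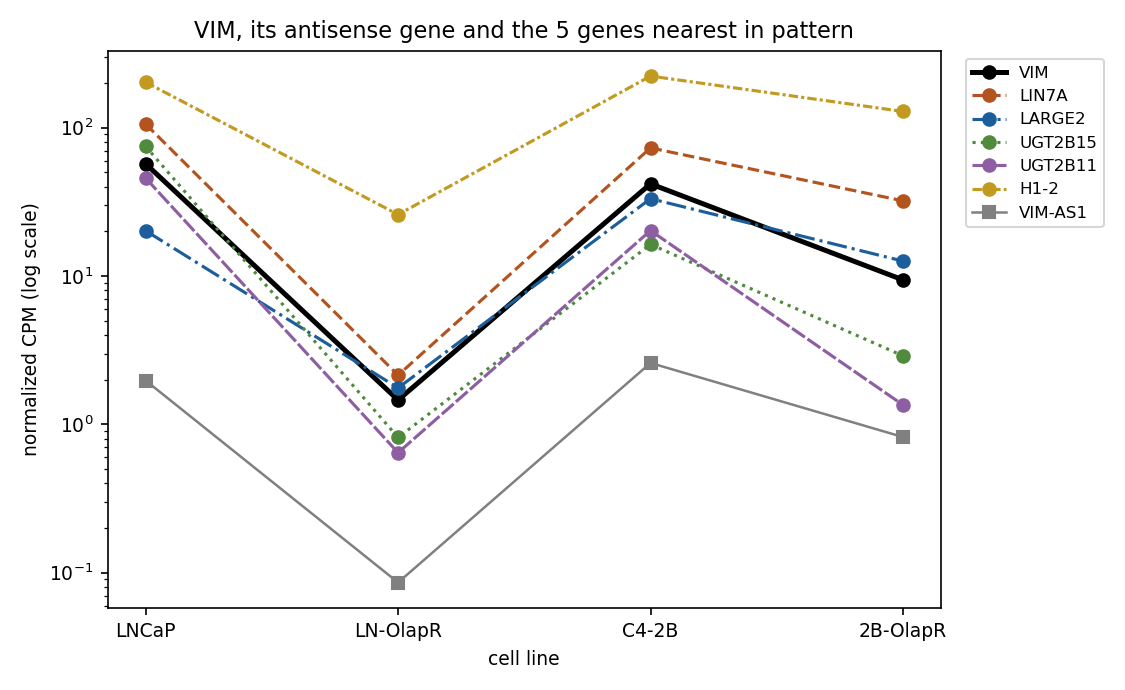
Normalized CPM (vertical axis, log scale) in the 4 lines for VIM, in black, the 5 genes nearest in pattern, in colour, and VIM-AS1, in grey. Each gene is lower in each resistant line than in its parent, with VIM at 57.0, 1.46, 41.8 and 9.41 from left to right.

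The lines were checked against cell type markers. All 9 luminal prostate markers were detected in each line, at a summed level of 3244 to 6532 CPM, and KLK3, which encodes PSA, was at 53.1 CPM in LNCaP against 1870 to 2685 in the others. Of markers of other cells, only 1 of 4 for basal cells, 1 of 3 for leukocytes and 1 of 3 for endothelium were measured. KRT14 for basal cells was at most 0.557 CPM, CD68 for leukocytes lay between 0.409 and 5.14 CPM, and VWF for endothelium between 2.61 and 12.2 CPM. The 3 fibroblast markers measured of 7, COL1A1, COL3A1 and PDGFRB, summed to 17.0 CPM in LNCaP, 19.0 in C4-2B, 10.4 in LN-OlapR and 8.83 in 2B-OlapR. This sum and VWF were lower in each resistant line, as VIM was, and their part in the VIM result was not tested.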

How the data were processed

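RNA-seq libraries (stranded mRNA, KAPA, from 100 ng of total RNA) were made by the authors from 4 cell lines, with 1 library per line. The authors deposited estimated counts per gene, unscaled, for 22637 genes, each summing to 10 or more in the 4 columns. The submitters' processing notes name STAR, Partek and the GRCh38 (hg38) build without versions, and whether strand was used in counting is not given in the sources used here. As 46.2% of values were not whole, counts were rounded, although whole counts had been assumed when the comparisons were planned.

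TMM factors came from edgeR 4.0.16 (R 4.3.3). Log2 ratios used a pseudocount of 0.5 counts and understate changes of low genes, while folds were taken without it. Level intervals are exact Poisson and ratio intervals exact conditional binomial at 95%, except for normal intervals of the difference between pairs. They cover counting error only, and estimated counts of shared reads can vary more. A floor of 3 counts was used for genes at 0. Gene positions and lengths were taken from GENCODE 29 (GRCh38), in which 21395 of 22637 identifiers were found, and the promoter sequence from RefSeq (1 of 8 members matched). Python 3.11.15, numpy, pandas and SciPy 1.17.1 were used, and the calculations were tested on simulated data.

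The members and lists were chosen with earlier results of these data known. Members were all described. From each list the genes named are the highest and lowest ratio per comparison where space allowed and genes called 2-fold in both pairs, and other list genes were chosen after their values were seen. A list gene is not reported here and was left out of its list. Alternatives were scaling by total counts, DESeq2 1.42.0 size factors or upper quartiles, another pseudocount (2), another minimum (0.1 or 10 CPM, or none), unrounded counts, and merged exon lengths.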

Additional observations from a re-analysis of the deposited data

Results flagged for a closer look

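SNAI2 and ELF5 went in opposite directions in the resistant lines. The log2 ratio of SNAI2 was 1.37 in the LN pair and -1.52 in the 2B pair. The log2 ratio of ELF5 was -3.25 in the LN pair and 1.33 in the 2B pair. With 1 library per line the difference between the pairs was not tested against variation between cultures. ELF5 rests on 5 counts in LN-OlapR and passed the minimum in the LN pair only through LNCaP.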

How the results depend on the processing

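No paired analysis was possible because each line had 1 library and carried no replicate number, and no library could be left out. With a minimum mean of 10 normalized CPM, the members called at 2-fold numbered 1 in the LN pair, 1 in the 2B pair and 0 for C4-2B against LNCaP, against 2 in each as reported, since fewer genes were tested. TWIST1 was added, making 3, in the LN pair with a minimum of 0.1 CPM or none and in C4-2B against LNCaP with none. Scaling by total counts gave ESRP2 a log2 ratio of -0.48 in the LN pair and moved the median of all genes by at most 0.084. The other 159 member ratios under alternatives moved by less than counting error. Those with a changed minimum are identical by construction, so only scaling, pseudocount and unrounded counts could move a ratio. Of 261 list medians under alternatives, 13 changed sign, and the largest median to do so was 0.167 in size (epithelial-state transcription factors, LN pair, with a minimum of 10 CPM), so the signs of medians near 0 are not settled. Depth limits TWIST1, with 0 to 26 counts, VIM-AS1 in LN-OlapR and VIM in LN-OlapR, with 34 counts, and without replicate libraries no ratio can be set against variation between cultures.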
